A study of Mus musculus with 18 samples.

Results

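The proteasome genes measured in left ventricular myocardium of FFFF and DKO mice were the subunits of the 26S proteasome, the inducible catalytic subunits of the immunoproteasome, the PA28 and PA200 activators and 2 chaperones that assemble the regulatory particle. The members were taken from a list of 40 gene symbols that names them by protein complex and uses no measured value. The list was nevertheless chosen with earlier results of these data known. Of the 40 symbols, 38 were matched to 1 feature each among the 24479 features of the array table. Psmb3 and Psmb5 were not analysed here.

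The 26S proteasome degrades proteins that carry ubiquitin. Its barrel-shaped 20S core is built of rings of alpha subunits, which gate the channel, and of beta subunits, of which the constitutive Psmb5, Psmb6 and Psmb7 cut peptide bonds. The 19S regulatory particle sits on the barrel and recognises ubiquitin. Its lid removes the ubiquitin, and its base holds a ring of ATPases that unfold the substrate and thread it inward. Interferon-gamma induces Psmb8, Psmb9 and Psmb10, which replace the constitutive catalytic subunits to form the immunoproteasome, abundant in leukocytes and known for making peptides for MHC class I. In the heart, the ubiquitin-proteasome system turns over sarcomere proteins, and the muscle ubiquitin ligases take part in that turnover.

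The 6 groups held 3 arrays each. FFFF mice carried loxP sites in Camk2d and Camk2g (the genes of CaMKIIδ and CaMKIIγ) and no Cre, and DKO mice carried the same floxed alleles with Cre under the cardiomyocyte promoter α-MHC, so that deletion was confined by design to cardiomyocytes. Both lines were of mixed 129/Sv and C57BL/6 background, and DKO mice were operated at 10 to 15 weeks of age, whereas no separate age is given for FFFF mice. Each genotype was measured after sham surgery and after I/R with reperfusion for 1 day or for 5 days, where I/R was a ligation of the left anterior descending artery for 60 min. The sample titles give no day for sham arrays. The same 3 sham arrays of a genotype were compared with both days. Sham tissue was left ventricular myocardium and I/R tissue its ischemic area, so surgery and sampled region cannot be told apart. The labels do not name separate animals, and p-values therefore measure the spread between arrays. The values are log2 expression on a normalized scale. A gene was called where limma's Benjamini-Hochberg adjusted p over all 24479 features was under 0.05.

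Several features of the arrays bear on the results. Replicate 1 of DKO hearts at 1 day, as labelled, read 9.70 for Camk2d and 7.10 for Camk2g on the log2 scale, within the FFFF range. The other 2 DKO arrays of that day read 7.90 and 8.31 for Camk2d and 5.994 and 6.215 for Camk2g. Camk2d in DKO sham arrays was 9.168, 9.271 and 9.104, and the lowest FFFF value was 9.268, so Camk2d did not fully separate the genotypes elsewhere either. The mean log2 value of 12 cardiomyocyte markers (Myh6, Tnnt2 and others) was 12.91 to 13.00 in sham arrays of both genotypes, 12.17 to 12.74 at 1 day and 11.83 to 12.83 at 5 days. The mean of 10 leukocyte markers (Ptprc, Itgb2 and others) was 6.40 to 6.88 in sham arrays, 7.43 to 9.22 at 1 day and 8.06 to 11.03 at 5 days. Arrays from male hearts were 2 of 3 in each group at 5 days and 0 of 3 in every other group. In these whole-tissue samples, a change in the share of a cell type and a change in RNA per cell cannot be told apart, and the part of cell marker levels and sex in the results was not tested, apart from the fits with sex as a covariate.

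The 250 bases before the RefSeq start sites (build GRCm38.p6) were read for 32 of the 38 members. No promoter entry was found for Psmb1, Psmb2, Psmb7, Psmc3, Psmd3 and Psmd7. The letters CCGGAAG, the core bound by ETS factors, were found on either strand in 12 of 35 member promoters (34.3%) and in 6.91% of all 32851 promoters of the table. The holders were 11 members: Psma6, Psmc1, Psmc2, Psmc6, Psmd2, Psmd4, Psmd6, Psmd11, Psmd12, Psme3 and Psme4. Among the members called higher in FFFF hearts at 1 day (given below), Psmc1, Psmc6, Psmd2 and Psmd11 held it. Psma7, Psmc4, Psmd1, Psmd13 and Psmd14 did not, and Psmb1, Psmc3, Psmd3 and Psmd7 could not be read. Whether the letters and the rise are linked was not tested. The antioxidant response core TGACNNNGC, to which NRF1 and NRF2 bind, was in the promoters of Psmb6, Psmc6, Psmd9 and Psmd12 (11.4% of member promoters and 10.2% of all). The GC box GGGCGG was in 60% of member promoters and 32.7% of all, and the CCAAT box CCAAT in 31.4% and 33.8%. Member promoters had a median GC content of 58.4% and all promoters of 52.4%. Among the immune motifs, TTCNNNGAA, the gamma-activated core of STAT factors, was in 1 member promoter, that of Psmb8, and in 7.02% of all. Its stricter form TTCCNGGAA was in no member promoter (0.913% of all), and the core of the interferon-stimulated response element was in those of Psmd4 and Psmd9 (2.98% of all). These are matches of letters and not sites of binding. Printed are 3 regulatory-particle genes of the 1-day rise or 5-day fall that hold the ETS core, Psmc1 (chr12:100109952-100110201, plus strand), Psmc6 (chr14:45329574-45329823, plus strand) and Psmd12 (chr11:107479278-107479527, plus strand), and the neighbouring inducible subunits Psmb8 (chr17:34197945-34198194, plus strand) and Psmb9 (chr17:34187331-34187580, minus strand). Capitals mark the ETS core (on the reverse strand in Psmc1 and Psmd12, on the forward strand in Psmc6), the antioxidant response core on the reverse strand at the 5′ end of the Psmc6 and Psmd12 windows, and the gamma-activated core of Psmb8. Psmb9 held neither of these.
Psmc1: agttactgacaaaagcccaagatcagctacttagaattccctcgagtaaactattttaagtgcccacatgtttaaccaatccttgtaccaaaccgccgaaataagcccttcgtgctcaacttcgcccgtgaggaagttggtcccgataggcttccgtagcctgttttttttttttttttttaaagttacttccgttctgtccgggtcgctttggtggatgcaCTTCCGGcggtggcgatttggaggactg
Psmc6: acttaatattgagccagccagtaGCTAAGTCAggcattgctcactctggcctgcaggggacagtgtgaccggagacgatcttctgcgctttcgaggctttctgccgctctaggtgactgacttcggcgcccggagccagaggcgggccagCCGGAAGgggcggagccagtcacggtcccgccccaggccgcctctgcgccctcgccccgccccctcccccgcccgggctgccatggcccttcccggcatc
Psmd12: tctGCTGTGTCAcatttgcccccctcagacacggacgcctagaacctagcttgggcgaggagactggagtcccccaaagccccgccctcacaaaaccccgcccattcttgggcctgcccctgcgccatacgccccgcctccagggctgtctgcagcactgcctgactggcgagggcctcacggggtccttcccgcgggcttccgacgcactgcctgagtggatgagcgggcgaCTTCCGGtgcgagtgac
Psmb8: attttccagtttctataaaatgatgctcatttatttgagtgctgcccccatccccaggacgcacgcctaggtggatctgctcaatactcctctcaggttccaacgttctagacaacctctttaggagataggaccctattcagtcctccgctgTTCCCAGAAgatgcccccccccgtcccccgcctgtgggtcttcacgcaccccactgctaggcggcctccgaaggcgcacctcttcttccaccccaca
Psmb9: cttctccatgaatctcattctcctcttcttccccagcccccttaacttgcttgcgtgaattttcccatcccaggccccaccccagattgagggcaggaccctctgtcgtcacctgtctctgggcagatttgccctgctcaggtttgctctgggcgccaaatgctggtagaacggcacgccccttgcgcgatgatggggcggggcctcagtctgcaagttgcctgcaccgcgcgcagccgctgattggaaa

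At 1 day after I/R, subunits of the regulatory particle rose in FFFF hearts. Of the 38 members, 13 were called higher and 0 lower, where 5.93% of all features were called higher and 5.79% lower. All 13 were subunits of the constitutive 26S particle. Of the 6 base ATPases 4 were called (Psmc1, Psmc3, Psmc4 and Psmc6), with 2 of the 3 other base subunits (Psmd1 and Psmd2). Of the 8 lid subunits 5 were called (Psmd3, Psmd7, Psmd11, Psmd13 and Psmd14, the last of which is the deubiquitinase of the lid). Only Psma7 of 7 alpha subunits and Psmb1 of 3 structural beta subunits were called, and neither of the constitutive catalytic subunits Psmb6 and Psmb7 was. The differences were nonetheless positive for 6 of the 7 alpha subunits (median 0.28) and all 3 structural beta subunits (median 0.21). They were 0.12 for Psmb6 and 0.19 for Psmb7, and Psma4, not called, had 0.49. The median log2 difference was 0.36 over the 31 constitutive members (all but the inducible subunits and the activators, base chaperones included), 0.30 over all 38 and -0.01 over all features.

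The ATPase Psmc4 (Rpt3) had log2 values of 9.55, 9.54 and 9.50 in FFFF sham arrays and 10.29, 10.17 and 10.18 at 1 day. The groups did not overlap, and the difference was 0.69 (SE 0.08, 1.61-fold, limma adjusted p = 0.000751). The ATPase Psmc1 (Rpt2) read 8.94, 8.92 and 8.95 at sham and 9.60, 9.62 and 9.48 at 1 day. It was higher in all 3 arrays, by 0.63 (SE 0.09, 1.55-fold, adjusted p = 0.00215). Psmc3 (Rpt5) read 9.78, 9.65 and 9.70 at sham and 10.12, 10.06 and 10.12 at 1 day, a smaller difference of 0.39 (SE 0.07, 1.31-fold, adjusted p = 0.00538) between groups that did not overlap. The other called differences lay between 0.35 for Psmb1 and 0.77 for Psmd14. Leaving out each of the 6 arrays in turn, Psmc1, Psmc3, Psmc4 and Psmc6 were called every time. The count of called members was 6, 5 and 5 without FFFF sham replicate 1, 2 and 3, and 4, 13 and 6 without FFFF I/R 1 day replicate 1, 2 and 3. In the same fits 2.53%, 1.92% and 2.81%, and 1.38%, 7.08% and 2.46%, of all features were called higher. In the fit without FFFF I/R 1 day replicate 2, 1 of the 13, Psme4, was lower (6.53% of all features).

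**Figure D1:**
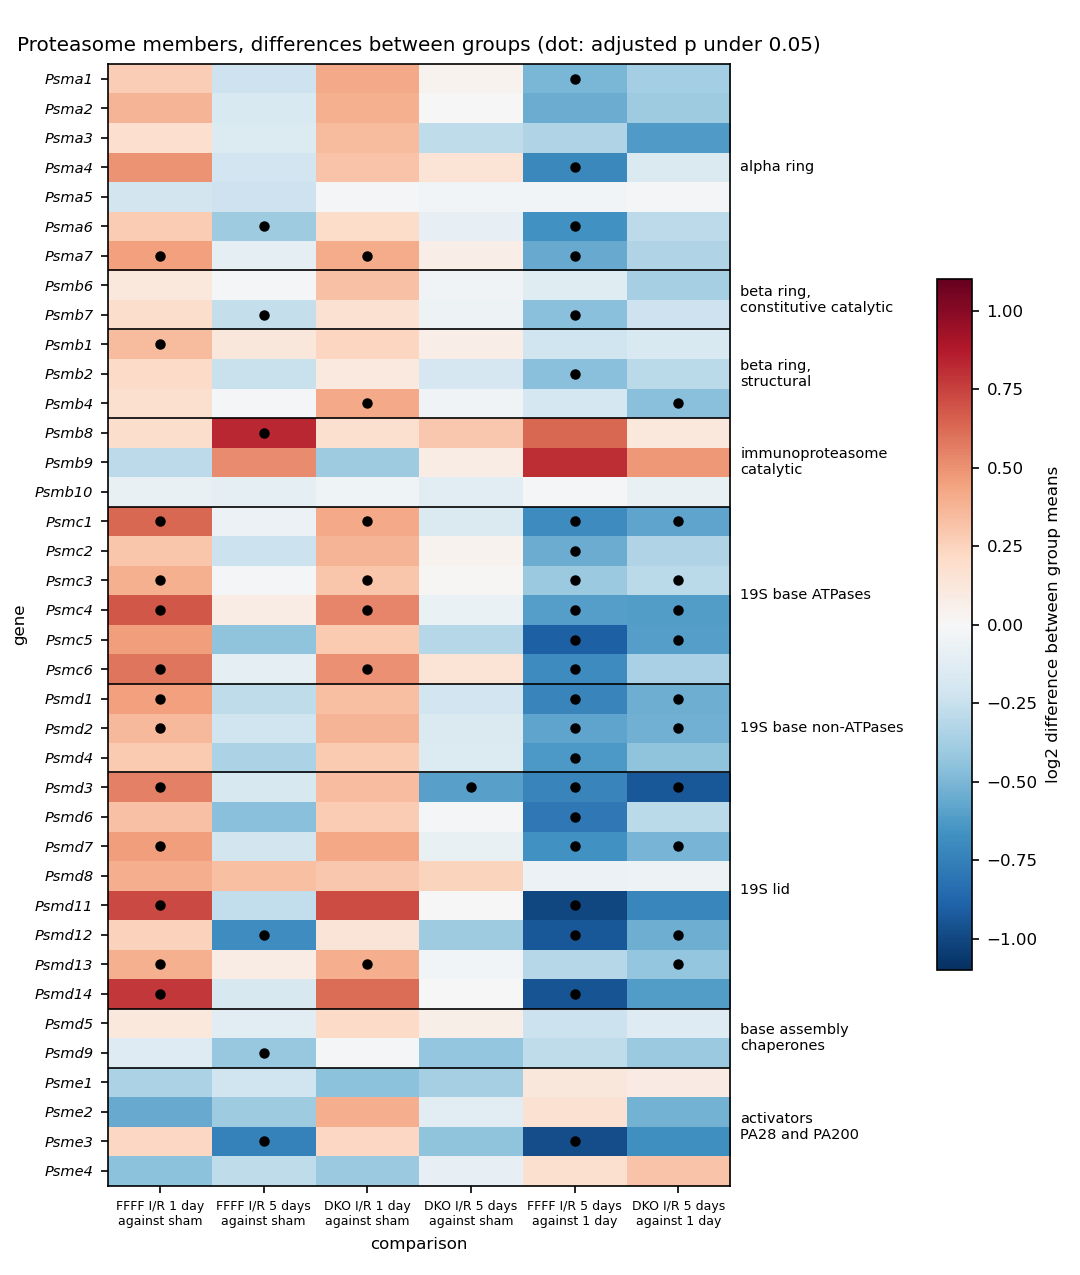
Log2 differences between group means (colour, from blue for lower to red for higher) for the 38 members in rows, grouped by role, and 6 comparisons in columns; a dot marks an adjusted p under 0.05. Regulatory-particle rows are red at 1 day and blue in the comparisons of 5 days with 1 day, and Psmb8 is the only member called higher at 5 days against sham.

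In DKO hearts, the base ATPases also rose at 1 day. Of the 38 members, 7 were called higher and 0 lower, against 2.58% of all features higher and 2.54% lower. They were the same 4 ATPases, Psmc1, Psmc3, Psmc4 and Psmc6, with Psma7, Psmb4 and the lid subunit Psmd13. No member was called by limma with DKO sham and DKO I/R 1 day fitted alone (adjusted p of Psmc4 0.0755, with 0.196% of all features called higher), and 2 were with a variance trend. The median log2 difference was 0.33 over the 31 constitutive members and 0.01 over all features. Psmc4 read 9.70, 9.67 and 9.59 at sham and 10.37, 10.07 and 10.13 at 1 day. The groups did not overlap, and the difference was 0.54 (SE 0.08, 1.45-fold, adjusted p = 0.0049). Psmc6 (Rpt4) read 9.71, 9.68 and 9.91 at sham and 10.41, 9.95 and 10.45 at 1 day. Replicate 2 was close to the highest sham array, and the difference was 0.50 (SE 0.11, 1.42-fold, adjusted p = 0.0238). Psmc1 read 8.81, 8.95 and 8.85 at sham and 9.40, 9.06 and 9.40 at 1 day, with replicate 2 again lowest of its group and a difference of 0.42 (SE 0.09, 1.34-fold, adjusted p = 0.0238).

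The number of calls depended on single arrays. The mean log2 value of the 31 constitutive members was 8.98 in DKO I/R 1 day replicate 2 and 9.36 and 9.31 in replicates 1 and 3, against 8.82 to 8.93 in DKO sham arrays. The same array had the lowest leukocyte mean of its group, 7.43 against 9.14 and 8.33, a neutrophil mean of 4.25 against 7.15 and 5.10, and the highest cardiomyocyte mean, 12.74 against 12.39 and 12.41. In FFFF hearts at 1 day, replicate 2 likewise had the lowest constitutive mean (9.28, against 9.40 and 9.33) and leukocyte mean. The part of these marker levels in the rise was not tested. Without DKO I/R 1 day replicate 2, 22 members were called higher and 1, Psme1, lower, where 7.03% of all features were called higher and 6.65% lower. Only Psmc4 was called when replicate 1 (the array with FFFF-like Camk2d) was left out, and 3 members when replicate 3 was (0.437% and 0.899% of all features higher). The count was 1, 1 and 5 without DKO sham replicate 1, 2 and 3 (0.556%, 0.498% and 1.27% of all features higher).

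**Figure D2:**
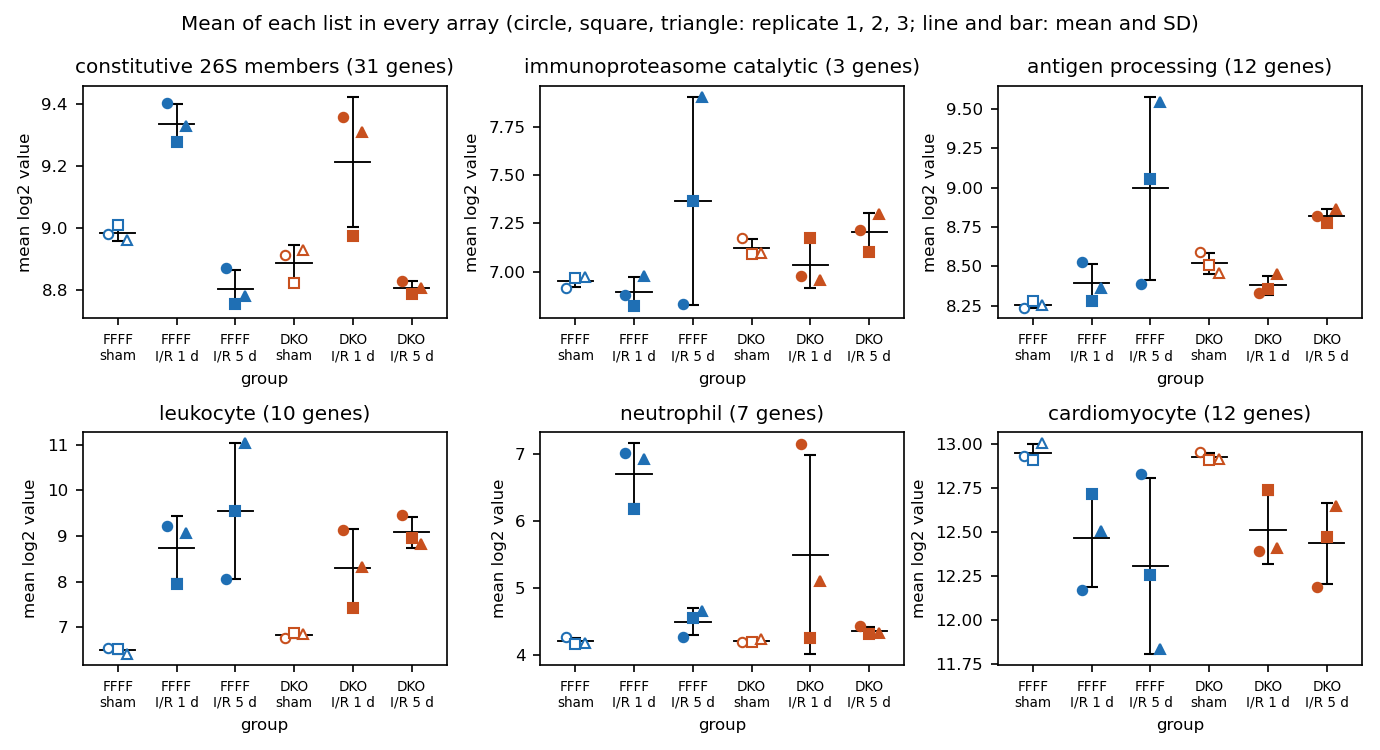
Mean log2 value of 6 gene lists in each of the 18 arrays (blue FFFF, orange DKO, open symbols sham; circle, square and triangle are replicates 1, 2 and 3; line and bar are the mean and SD of 3 arrays). The constitutive 26S mean is highest at 1 day in both genotypes, with DKO replicate 2 apart at 8.98, and the immunoproteasome, antigen processing and leukocyte means spread widely in FFFF hearts at 5 days.

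From 1 day to 5 days of reperfusion, proteasome genes fell in both genotypes. In FFFF hearts 22 of 38 members were called lower and 0 higher, where 3.20% of all features were called lower and 3.05% higher. In DKO hearts 11 were called lower and 0 higher, where 2.14% of all features were called lower and 2.45% higher. The difference was negative for all 31 constitutive members in FFFF hearts (median -0.56, 21 called) and in DKO hearts (median -0.39, 11 called), beside medians of -0.01 and -0.02 over all features. In FFFF hearts the calls were all 6 base ATPases, all 3 other base subunits and 6 of 8 lid subunits. The others called were 4 alpha subunits, Psmb7, Psmb2 and the activator Psme3. In DKO hearts 4 ATPases (Psmc1, Psmc3, Psmc4 and Psmc5), Psmd1, Psmd2, 4 lid subunits and Psmb4 were called. These comparisons share the 1-day arrays with the rise described above.

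Psmc1 read 8.95, 8.80 and 8.86 in FFFF hearts at 5 days and was below the 1-day values of 9.48 to 9.62 in every array, by -0.70 (SE 0.09, 0.617-fold, limma adjusted p = 0.0016). Psmc4 read 9.73, 9.50 and 9.59 at 5 days, and the difference from 1 day was -0.60 (SE 0.08, 0.658-fold, adjusted p = 0.00187). At 5 days the differences from sham were -0.06 for Psmc1 (adjusted p = 0.728) and 0.08 for Psmc4 (adjusted p = 0.579). The lid subunit Psmd12 (Rpn5) read 10.11, 10.14 and 10.14 at sham, 10.39, 10.39 and 10.38 at 1 day and 9.74, 9.30 and 9.31 at 5 days. It fell by 0.93 from 1 to 5 days (SE 0.13, 0.524-fold, adjusted p = 0.00246) and ended below every sham array. Leaving out each array in turn, 15 to 24 members were called in FFFF hearts, among them 2 higher, Psmb8 and Psmb9, without FFFF I/R 5 days replicate 1. In these fits 1.04% to 5.71% of all features were called lower, and without that replicate 6.39% were called higher.

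In DKO hearts at 5 days, Psmc4 read 9.53, 9.52 and 9.69 and Psmc1 read 8.87, 8.60 and 8.67. The differences from 1 day were -0.61 for Psmc4 (SE 0.08, 0.655-fold, adjusted p = 0.00315) and -0.58 for Psmc1 (SE 0.09, 0.669-fold, adjusted p = 0.00609). The lid subunit Psmd3 (Rpn3) read 8.29, 8.26 and 8.33 at sham, 8.78, 8.35 and 8.77 at 1 day and 7.36, 7.82 and 7.92 at 5 days. All its 5-day values lay below all its other values, and the fall from 1 day was -0.93 (SE 0.16, 0.523-fold, adjusted p = 0.00898). Psmc1, Psmc4 and Psmd3 were called with any of the 6 arrays left out. The count was 3, 24 and 7 without DKO I/R 1 day replicate 1, 2 and 3, and 5, 4 and 6 without DKO I/R 5 days replicate 1, 2 and 3. In the same fits 0.409%, 4.76% and 1.44%, and 0.441%, 0.531% and 1.02%, of all features were called lower. The count thus moved with the share of all features. With sex as a covariate the count was 6 (0.621% of all features called lower), and with the 2 groups fitted alone 0 (0.0327%).

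**Figure D3:**
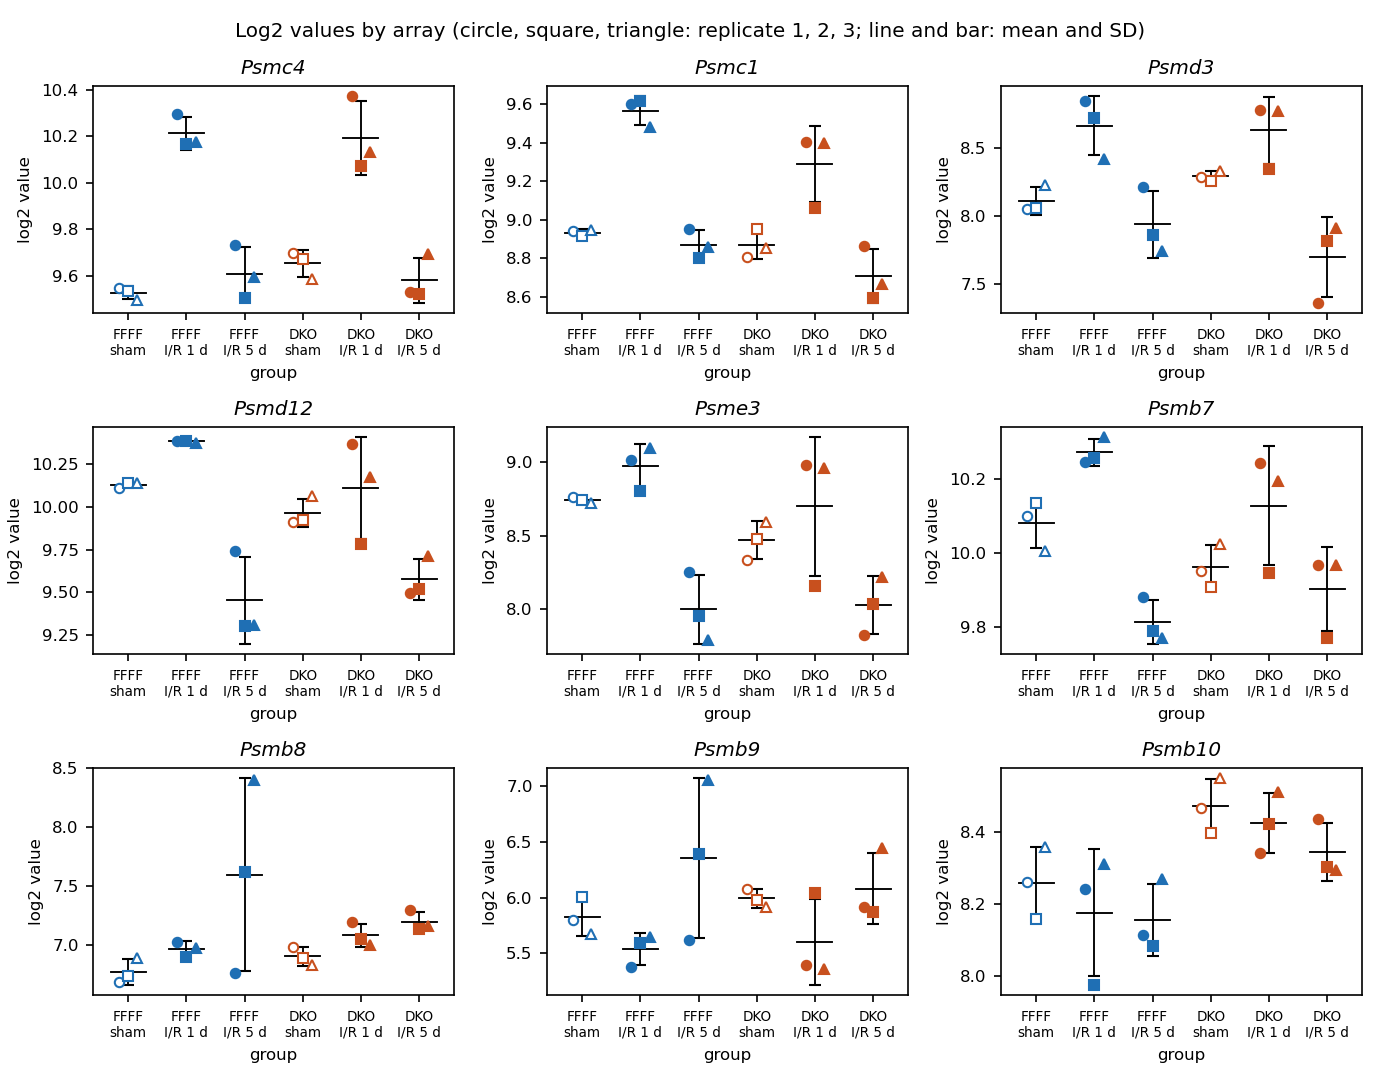
Log2 values of 9 members in each array, by group (blue FFFF, orange DKO, open symbols sham; circle, square and triangle are replicates 1, 2 and 3; line and bar are the mean and SD of 3 arrays; each panel has its own axis). Psmc4 and Psmc1 stand above sham at 1 day and near it at 5 days, Psmd12 and Psme3 lie below sham at 5 days in both genotypes (called in FFFF hearts), and Psmb8 and Psmb9 spread from 6.76 to 8.40 and from 5.62 to 7.05 in FFFF hearts at 5 days.

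At 5 days after I/R, few members were called against sham. In FFFF hearts 1 member was called higher, Psmb8, and 5 lower, Psmd12, Psme3, Psma6, Psmb7 and the base chaperone Psmd9, where 8.26% of all features were called higher and 10% lower. The median log2 difference was -0.21 over the 38 members and -0.02 over all features. In DKO hearts 0 were called higher and 1 lower, Psmd3, where 3.23% of all features were called higher and 2.84% lower, and the members' median was -0.05. The counts of lower calls, 5 and 1 of 38, were close to the share of all features.

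Psmd12 differed from FFFF sham by -0.68 (SE 0.13, 0.624-fold, limma adjusted p = 0.00484), with all 3 arrays at 5 days below all sham arrays. The PA28γ gene Psme3, whose product activates the nuclear proteasome, read 8.76, 8.74 and 8.72 at sham and 8.25, 7.95 and 7.79 at 5 days. The groups did not overlap, and the difference was -0.74 (SE 0.19, 0.597-fold, adjusted p = 0.015). The alpha subunit Psma6 read 9.48, 9.46 and 9.54 at sham and 9.34, 9.03 and 8.94 at 5 days, a difference of -0.39 (SE 0.11, 0.764-fold, adjusted p = 0.0268). In these 3 genes, the 5-day array nearest to sham was replicate 1, which also had the highest cardiomyocyte mean (12.83, against 12.25 and 11.83) and the lowest leukocyte mean of its group. The part of these marker levels in the difference was not tested. Psmd12 was called with any array left out. The count of called members was 3, 2 and 3 without FFFF sham replicate 1, 2 and 3, and 11, 1 and 2 without FFFF I/R 5 days replicate 1, 2 and 3. Over these fits 4.18% to 11.6% of all features were called higher and 3.75% to 13.2% lower. In the fit that called 11, 3 of them higher, 11.6% of all features were called higher and 13.2% lower. With the 2 groups fitted alone Psmd12 had an adjusted p of 0.0519 and Psma6 of 0.098, with a variance trend Psma6 had 0.0567, and with sex as a covariate Psme3 and Psma6 had 0.0518 and 0.0602.

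The genes called lower in FFFF hearts, Psmd12, Psme3, Psma6, Psmb7 and Psmd9, also had negative differences in DKO hearts, none of them called by limma. The smallest were those of Psma6 (group means of 9.355 at DKO sham and 9.265 at 5 days) and Psmb7 (9.962 and 9.902). Psmd12 (9.49, 9.52 and 9.71) differed from sham by -0.39 (adjusted p = 0.0948), Psme3 by -0.44 (adjusted p = 0.173) and Psmd9 by -0.43 (adjusted p = 0.067, against -0.42 in FFFF hearts), each with all 5-day arrays below all sham arrays. In DKO hearts at 5 days Psmd3 differed from sham by -0.59 (SE 0.16, 0.663-fold, limma adjusted p = 0.0469). It stayed called without DKO I/R 5 days replicate 3 (adjusted p = 0.0363). Without each of the other 5 arrays of DKO sham and DKO I/R 5 days the adjusted p was 0.0907 to 0.218, so that the count was 0. It was 0 also with a variance trend, by gene-wise analysis, with a replicate block and with sex as a covariate (adjusted p = 0.0525, 0.0785, 0.0681 and 0.133). The lid subunit Psmd8 (Rpn12) was the lid gene with the highest 5-day difference, 0.33 in FFFF hearts (SE 0.17, adjusted p = 0.204) and 0.24 in DKO hearts (SE 0.17, adjusted p = 0.44). Its FFFF 5-day values of 9.35, 9.77 and 10.31 were lowest in replicate 1 and highest in replicate 3, and it was called higher without replicate 1 (0.56, adjusted p = 0.00588).

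Of the inducible catalytic subunits, Psmb8 was called higher than sham in FFFF hearts at 5 days. None of Psmb8, Psmb9 and Psmb10 was called at 1 day in either genotype by limma. At an unadjusted p under 0.05 there were 0 of 3, beside 26.1% of all features in FFFF and 22.1% in DKO hearts. Psmb8 (LMP7) read 6.68, 6.73 and 6.89 in FFFF sham arrays, 7.02, 6.90 and 6.97 at 1 day and 6.76, 7.62 and 8.40 at 5 days. Every 1-day array lay above every sham array (0.20, SE 0.26, adjusted p = 0.735). At 5 days replicate 1 lay within the sham range and replicates 2 and 3 above it, and the difference was 0.83 (SE 0.26, 1.78-fold, adjusted p = 0.0433). Psmb9 (LMP2) read 5.80, 6.01 and 5.67 at sham, 5.37, 5.59 and 5.65 at 1 day and 5.62, 6.39 and 7.05 at 5 days. Its 1-day values lay below the sham range, its 5-day arrays had the order of Psmb8, and the difference of 0.52 was not called (SE 0.28, adjusted p = 0.242). Psmb10 (MECL-1) read 8.26, 8.16 and 8.36 at sham, 8.24, 7.97 and 8.31 at 1 day and 8.11, 8.08 and 8.27 at 5 days, with overlapping groups throughout.

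In DKO hearts Psmb8 read 6.98, 6.89 and 6.83 at sham, 7.19, 7.05 and 6.99 at 1 day and 7.29, 7.13 and 7.16 at 5 days. Every array of either I/R day lay above every sham array, and the differences of 0.18 at 1 day (SE 0.26, adjusted p = 0.759) and 0.29 at 5 days (SE 0.26, adjusted p = 0.579) were not called with a spread pooled over all groups. Psmb9 read 6.08, 5.98 and 5.92 at sham, 5.40, 6.04 and 5.36 at 1 day and 5.92, 5.87 and 6.44 at 5 days, and Psmb10 read 8.47, 8.40 and 8.55, then 8.34, 8.42 and 8.51, then 8.44, 8.30 and 8.29. The groups of both genes overlapped, except that all Psmb10 values at 1 day and at 5 days lay within or below the sham range.

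The FFFF arrays at 5 days had the same order in leukocyte marker levels as in Psmb8 and Psmb9. The mean of the 10 leukocyte markers was 8.06, 9.54 and 11.03 in replicates 1, 2 and 3, and that of 7 macrophage markers was 8.99, 10.12 and 10.74. All 10 leukocyte and all 7 macrophage markers were called higher than at sham, and 1 of 6 T-cell markers. At 1 day 9 of 10 leukocyte and 6 of 7 neutrophil markers were called higher in FFFF hearts, with leukocyte means of 9.22, 7.95 and 9.07 and Psmb8 at or below 7.02. The part of leukocyte marker levels in the Psmb8 values was not tested. The Psmb8 difference at 5 days was 0.42 without FFFF I/R 5 days replicate 3 (adjusted p = 0.166) and 1.24 without replicate 1 (adjusted p = 0.000138). It was 0.79, 0.81 and 0.89 without FFFF sham replicate 1, 2 and 3 (adjusted p = 0.113, 0.113 and 0.0745) and 0.82 without FFFF I/R 5 days replicate 2 (adjusted p = 0.113). With the full set of arrays the Psmb8 call was lost by gene-wise analysis of variance, with a replicate block and with the 2 groups fitted alone (adjusted p = 0.0685, 0.0546 and 0.255). Psmb9 was called without FFFF I/R 5 days replicate 1 (0.89, adjusted p = 0.0122).

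**Figure D4:**
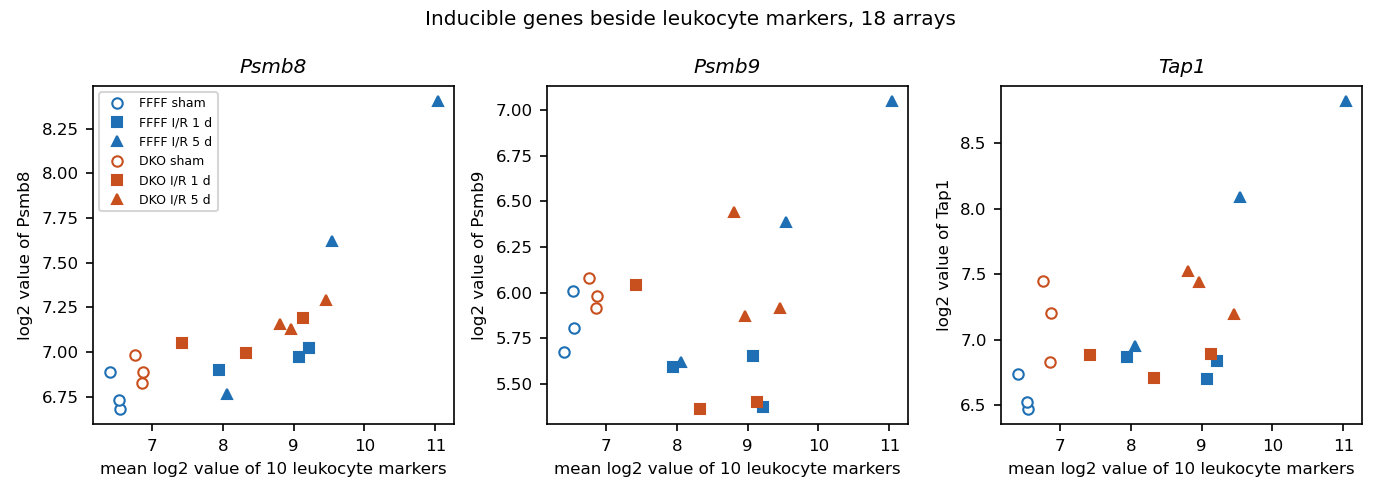
Log2 value of Psmb8, Psmb9 and the peptide transporter gene Tap1 (y axes) against the mean log2 value of 10 leukocyte markers (x axes) in the 18 arrays (blue FFFF, orange DKO; open circles sham, squares 1 day, triangles 5 days). The array with the highest leukocyte mean, 11.03, has the highest value of all 3 genes, and the 1-day arrays with leukocyte means of up to 9.22 stay at or below 7.19 for Psmb8.

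Whether an inducible subunit shifted against the constitutive subunit it replaces was asked within each array, which cancels what acts on both genes alike. The Psmb9 minus Psmb6 difference was -4.56, -4.28 and -4.59 in FFFF sham arrays and -5.15, -4.78 and -4.71 at 1 day. In DKO arrays it was -4.15, -4.10 and -4.31 at sham and -5.19, -4.60 and -4.90 at 1 day. Every 1-day array lay below every sham array of its genotype, and the mean shift was -0.56 (exact two-sided permutation test within genotypes, p = 0.005, the smallest the 400 regroupings can give, 0.01 after Benjamini-Hochberg adjustment over 4 such tests). For Psmb10 minus Psmb7 the values were -1.84, -1.98 and -1.65 at FFFF sham and -2.01, -2.28 and -2.00 at 1 day. They were -1.48, -1.51 and -1.48 at DKO sham and -1.90, -1.52 and -1.68 at 1 day. The order was the same, and the mean shift was -0.24 (exact permutation p = 0.005, adjusted 0.01). Both genes of each pair took part in the shift at 1 day. Psmb9 differed from sham by -0.29 in FFFF and -0.39 in DKO hearts, and Psmb6 by 0.12 and 0.32. Psmb10 differed by -0.08 and -0.05 and Psmb7 by 0.19 and 0.17, so the larger part of that shift was in Psmb7. At 5 days the shifts were 0.33 for Psmb9 minus Psmb6 (exact permutation p = 0.185, adjusted 0.247) and 0.05 for Psmb10 minus Psmb7 (p = 0.585, adjusted 0.585). The regroupings treat the arrays of the 2 genotypes as independent, although same-numbered FFFF and DKO arrays of 1 day deviated together over all features (correlations of 0.382, 0.529 and 0.36). Within 1 genotype, 3 against 3 arrays cannot give a p under 0.1. The adjusted p of Psmb10 minus Psmb7 at 1 day was 0.05, and so no longer under the threshold, without FFFF sham replicate 3 or FFFF I/R 1 day replicate 2.

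**Figure D5:**
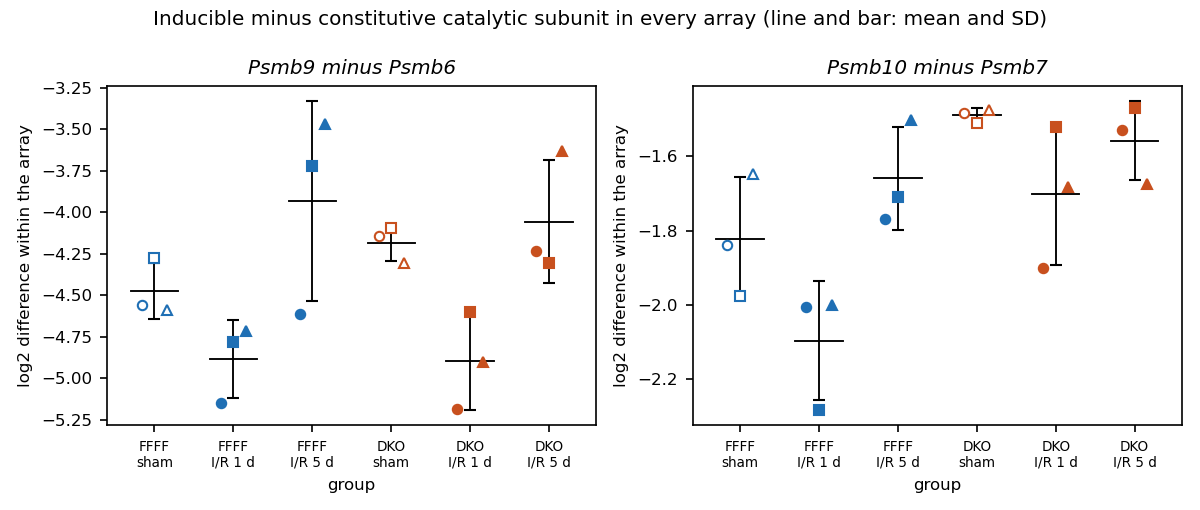
Log2 difference within each array between an inducible and a constitutive catalytic subunit, Psmb9 minus Psmb6 and Psmb10 minus Psmb7, by group (blue FFFF, orange DKO, open symbols sham; circle, square and triangle are replicates 1, 2 and 3; line and bar are the mean and SD of 3 arrays). In both genotypes the 1-day arrays lie below the sham arrays, with mean shifts of -0.56 and -0.24, and at 5 days the groups overlap.

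Of the activators, Psme3 was called lower in FFFF hearts at 5 days, against sham and against 1 day. Psme1 and Psme2 encode PA28α and PA28β, the interferon-inducible cap of the immunoproteasome, and Psme4 encodes PA200. At 1 day none of the 4 activator genes was called in either genotype by limma. At an unadjusted p under 0.05 there was 1 of 4 in each, close to the share of all features (26.1% in FFFF and 22.1% in DKO hearts). The median difference was -0.40 in FFFF and -0.09 in DKO hearts. Psme1 read 10.44, 10.57 and 10.18 at FFFF sham, 9.84, 10.21 and 10.09 at 1 day and 10.45, 10.05 and 10.02 at 5 days. In DKO arrays it read 10.56, 10.47 and 10.38, then 10.09, 10.19 and 9.78, then 10.03, 9.99 and 10.29. The DKO groups after I/R lay below sham without overlap, by -0.45 at 1 day (SE 0.15, adjusted p = 0.0886) and -0.36 at 5 days (SE 0.15, adjusted p = 0.156). Psme4 read 10.88, 10.76 and 10.90 at FFFF sham, 9.82, 11.06 and 10.32 at 1 day and 10.83, 10.55 and 10.33 at 5 days. In DKO arrays it read 10.72, 10.74 and 10.59, then 10.10, 10.73 and 10.01, then 10.38, 10.79 and 10.61. At 1 day replicate 2 was the highest array in both genotypes, and replicate 2 also had the highest cardiomyocyte mean there (12.71 in FFFF and 12.74 in DKO). Whether the 2 are linked was not tested. Without FFFF I/R 1 day replicate 2 the Psme4 difference was -0.78 and called (adjusted p = 0.0297).

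Psme3 read 9.02, 8.80 and 9.10 at 1 day in FFFF hearts, above all 3 sham arrays (0.23, SE 0.19, limma adjusted p = 0.517), and fell by 0.97 from 1 to 5 days (SE 0.19, 0.509-fold, adjusted p = 0.00946). In DKO hearts it read 8.33, 8.48 and 8.59 at sham, 8.98, 8.16 and 8.96 at 1 day and 7.83, 8.04 and 8.22 at 5 days. The fall from 1 to 5 days, -0.67 (SE 0.19, adjusted p = 0.0575), was not called, and replicate 2 at 1 day was below sham. Psme2 read 6.30, 6.54 and 6.52 at FFFF sham, 5.69, 6.25 and 5.74 at 1 day and 6.52, 5.71 and 5.96 at 5 days, and it has a near-identical retrocopy in the mouse, so its signal may not be from 1 gene. In DKO arrays it read 6.21, 6.04 and 6.29, then 6.57, 7.15 and 6.01, then 6.37, 5.94 and 5.85.

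Whether the loss of CaMKII in cardiomyocytes changed proteasome expression was asked at each time and for the response to I/R. No member was called by limma or by gene-wise analysis of variance between DKO and FFFF hearts at sham, 1 day or 5 days, nor for the difference in response at either day. Of all features 0.00817% were called at sham, 0% at 1 day, 0% at 5 days, 0.00409% for the response at 1 day and 0% for that at 5 days. At an unadjusted p under 0.05 there were 2 members at sham (5.96% of all features), 4 at 1 day (6.70%), 0 at 5 days (2.41%), 1 for the response at 1 day (4.60%) and 0 for that at 5 days (4%). Under every alternative fit tried, adjusted calls of members stayed at 0. The members' median difference between DKO and FFFF was -0.12 at sham, -0.11 at 1 day and 0.01 at 5 days, with ranges of -0.32 to 0.21, -0.35 to 0.68 and -0.40 to 0.21. A p over the threshold in 3 against 3 arrays does not show equal expression. The deleted genes Camk2d and Camk2g were themselves not called between DKO and FFFF hearts at any of these times. Their differences at sham were -0.54 and -1.37 (limma adjusted p = 0.887 and 0.264). They were -1.05 and -0.74 at 1 day (limma adjusted p = 0.65 and 0.672), and -0.91 and -0.90 at 5 days. By Western blot, which measures protein and not RNA, the paper reported reduced CaMKII and reduced phospholamban phosphorylation at the CaMKII site in DKO hearts.

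The members with the smallest p are given with their values. At sham these were Psma1, an alpha subunit, which read 8.24, 8.03 and 8.17 in DKO arrays, below the FFFF values of 8.36 to 8.65 (-0.32, SE 0.13, limma adjusted p = 0.757), and Psmb10 (0.21, SE 0.09, adjusted p = 0.774). Psmb10 was the inducible subunit whose DKO values lay above the FFFF values at all times: by 0.25 at 1 day (SE 0.09, adjusted p = 0.672) and by 0.19 at 5 days (SE 0.09, adjusted p = 1), without overlap in any of the 3 comparisons. At 1 day Psmc1 was lower in DKO hearts by -0.28 (SE 0.09, adjusted p = 0.663), with no overlap. That DKO group holds replicate 1, whose Camk2d value was in the FFFF range. At 5 days Psmd13 differed by -0.19 (SE 0.09, adjusted p = 1). For the response at 1 day the smallest p belonged to Psme2 (0.95, SE 0.37, unadjusted p = 0.0226, adjusted p = 1) and Psmb4 (0.24, SE 0.13, adjusted p = 1), and for that at 5 days to Psmd6 (0.44, SE 0.22, adjusted p = 0.999) and Psma6 (0.30, SE 0.16, adjusted p = 0.999). The Psme2 value was 0.96 when DKO replicate 1 of that day was left out and 0.67 when replicate 2 was.

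The signal of most members was in the upper part of the array's range, on a scale that does not rank genes by abundance. All members but Psma5 were at or above the 63rd percentile of all features. The mean log2 value over 18 arrays was highest for Psme4 (10.56), Psmb6 (10.30) and Psme1 (10.20), and Psmb9 was among the lowest (5.90). Psma5 was at 3.94, at the 15.8th percentile of all features, with array values of 3.76 to 4.29. It was the only member that did not pass a filter on low values, and its lack of a called difference carries little information on an alpha subunit that the 20S core needs. The chaperone genes Psmd5 and Psmd9, which assemble the base, were not called at 1 day in either genotype by limma. At an unadjusted p under 0.05 there were 0 of 2, beside 26.1% of all features in FFFF and 22.1% in DKO hearts.

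Genes that work with the proteasome were read from 3 further lists, which were not tested against the members. Of 20 assembly and regulator genes 2 rose and 0 fell in FFFF hearts at 1 day, where 5.93% of all features rose and 5.79% fell: Sem1, a small lid component (0.43, SE 0.08, limma adjusted p = 0.00803), and Rad23b, which shuttles ubiquitinated proteins to the proteasome (0.81, SE 0.17, adjusted p = 0.0128). At 5 days 1 rose and 5 fell, where 8.26% of all features rose and 10% fell. Sem1 read 10.05, 9.88 and 9.91 at sham and 10.44, 10.53 and 10.65 at 5 days and was the riser (0.59, SE 0.08, adjusted p = 0.000902). It thus rose where its lid partner Psmd12 fell. Among those that fell was Uchl5, a deubiquitinase of the base (-0.71, SE 0.15, adjusted p = 0.00683). Rad23b, not called at 5 days, read 9.24, 9.15 and 9.21 at sham and 9.46, 9.40 and 9.33 at 5 days. From 1 to 5 days 3 fell in FFFF hearts, among them Txnl1 (-0.81, adjusted p = 0.0174) and Uchl5 (-0.67, adjusted p = 0.0196), and 0 rose, beside 3.20% of all features lower and 3.05% higher. In DKO hearts the calls were 0 at 1 day, with 4 of 20 at an unadjusted p under 0.05, close to the 22.1% of all features. At 5 days 2 were called lower (2.84% of all features), among them Zfand5, a proteasome-activating zinc finger gene (-0.56, SE 0.12, adjusted p = 0.0196).

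Of 13 ubiquitin and ubiquitin-ligase genes 0 were called at 1 day in either genotype. At an unadjusted p under 0.05 by limma there were 2 in FFFF hearts (26.1% of all features) and 3 in DKO hearts (22.1%). At 5 days 3 fell and 0 rose in FFFF hearts, where 10% of all features fell and 8.26% rose: Trim63, the muscle ligase MuRF1 that acts on sarcomere proteins, Ufd1, a cofactor of the segregase p97, and Stub1, the chaperone-linked ligase CHIP. Trim63 read 10.15, 10.19 and 10.04 at sham and 9.78, 8.48 and 8.05 at 5 days, in the order of the cardiomyocyte means of those arrays (12.83, 12.25 and 11.83). The difference was -1.36 (SE 0.37, 0.39-fold, adjusted p = 0.0215). Its link to the cardiomyocyte markers was not tested. Ufd1 differed by -0.50 (SE 0.13, adjusted p = 0.0164) and Stub1 by -0.55 (SE 0.16, adjusted p = 0.0271). From 1 to 5 days Ufd1 (-0.52, adjusted p = 0.0271) and the activating enzyme gene Uba1 (-0.34, adjusted p = 0.0407) fell in FFFF hearts, beside 3.20% of all features. In DKO hearts none was called at 5 days. At an unadjusted p under 0.05 there were 3 of 13, close to the 23% of all features.

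Of 12 antigen processing genes, which handle the peptides that the proteasome makes, 6 rose and 0 fell in FFFF hearts at 5 days, where 8.26% of all features rose and 10% fell, and the median difference was 0.71. The class I heavy chain H2-D1 read 10.41, 10.32 and 10.20 at sham and 11.004, 12.40 and 12.97 at 5 days (1.81, SE 0.35, 3.51-fold, limma adjusted p = 0.00462). Its sequence is close to that of H2-K1, so the 2 genes may share signal. B2m, the light chain, differed by 0.99 (SE 0.21, adjusted p = 0.00639). Tap1, the peptide transporter, read 6.47, 6.53 and 6.74 at sham and 6.96, 8.09 and 8.82 at 5 days (1.37, SE 0.32, adjusted p = 0.0102). Replicate 1 was the lowest and replicate 3 the highest 5-day array in all 3 genes, as in Psmb8, Psmb9 and the leukocyte mean. At 1 day Pdia3, a folding enzyme of the loading complex, rose (0.94, SE 0.28, adjusted p = 0.0443) and Erap1, which trims peptides, fell (-0.51, SE 0.15, adjusted p = 0.0472), beside 5.93% of all features higher and 5.79% lower. From 1 to 5 days 4 rose, where 3.05% of all features did, among them Tapbp (1.09, adjusted p = 0.0118), B2m (0.84, adjusted p = 0.0296) and Tap1 (1.15, adjusted p = 0.0476). In DKO hearts 0 were called at 5 days against sham, with a median of 0.22. At an unadjusted p under 0.05 there were 3 of 12, close to the 23% of all features. The difference in response between the genotypes was not called for any feature at 5 days.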

How the data were processed

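RNA of mouse left ventricular myocardium or its ischemic area was hybridised to 18 Affymetrix mogene20-st-v1 arrays. The authors deposited log2 values made by RMA (version not given in the sources used here) after quantile normalization, using version 18 of a custom chip definition in which each Entrez gene is 1 feature. Array medians were 4.8516 to 4.8522. Scanner intensities were not analysed here. Precision is limited by the number of arrays. Symbols were matched for 23837 of 24479 features.

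Groups follow the sample labels. One linear model of the 6 groups was fitted to all features with limma 3.58.1 in R 4.3.3 (eBayes, 12 residual degrees of freedom before moderation), with Benjamini-Hochberg adjustment over all features and a threshold of 0.05. The methods of the study name a gene-wise analysis of variance at a level of 0.01, and both were run as alternatives. Shifts between paired catalytic subunits were tested by exact permutation within genotypes; the Psmb8 and Psmb5 pair could not be tested because Psmb5 was not analysed here. The scripts were tested on simulated data. The members and the gene lists were chosen with earlier results of these data known. Named were the catalytic subunits, the activators and, per comparison, the 3 members of smallest p in each direction (2 where none was called), up to 3 called genes of each other list, and Camk2d and Camk2g. The values of 1 gene of the other lists are not reported here. Psmd8, Psma5 and the genes at the ends of ranges lie outside that rule and were chosen after their values were seen. Sex was assigned by the levels of Xist and of transcripts of the Y chromosome. Equal replicate numbers of DKO and FFFF arrays at 1 day deviated together (correlations of 0.382, 0.529 and 0.36), and no label names a shared animal or day; in the other pairs of groups checked, not every correlation was over 0.1. Alternatives were a variance trend, array weights, the compared groups fitted alone, a filter keeping 16091 features above the 40th percentile in at least 3 arrays, median centring, further quantile normalization, a replicate block, sex as a covariate and each array left out. Promoter sequences are from RefSeq (GRCm38.p6).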

Additional observations from a re-analysis of the deposited data

How the results depend on the processing

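For the 27 combinations of a member and a comparison named for the smallest p (17 called, 10 not), 402 of 454 values under other settings kept their side of the threshold, 52 lost the call and 0 changed sign. Outside these, members gained 42 calls with 1 array left out, among them Psmb9, Psme1, Psme3, Psme4 and Psmb6. The 176 medians over the members moved by less than the spread between arrays, 0.157. That spread is larger than the median itself in DKO at 5 days against sham (-0.05) and between DKO and FFFF (-0.12, -0.11 and 0.01). It is also larger than the medians for the response (-0.03 at 1 day and 0.12 at 5 days). For these medians the measure cannot show stability. Counts of called members were less stable. With FFFF at 1 day against sham (13), the count was 8 by gene-wise analysis of variance and 4 at an adjusted p under 0.01, and 4 to 13 with 1 array left out. With FFFF at 5 days against sham (6), it was 3 with a variance trend, 16 with array weights, 1 at 0.01, 2 with the compared groups alone, and 1 to 11 with 1 array left out. With DKO at 1 day against sham (7), it was 2 with a trend, 16 with weights, 1 at 0.01, 0 with the groups alone, and 1 to 23 with 1 array left out. With DKO at 5 days against sham (1), it was 0 with a trend, by gene-wise analysis, with sex as a covariate, at 0.01 and with the replicate block, 5 with weights, 4 with the groups alone, and 0 to 1 with 1 array left out. With FFFF at 5 days against 1 day (22), it was 13 at 0.01, 7 with the groups alone, and 15 to 24 with 1 array left out; with DKO (11), it was 6 with a trend, 23 with weights, 6 with sex, 3 at 0.01, 0 with the groups alone, and 3 to 24 with 1 array left out. Fits of the compared groups alone and with 1 array left out use fewer arrays; the cause of the other shifts was not tested. Median centring and further quantile normalization changed no count.

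Shares of all features moved too. With array weights 15% of all features were called higher and 18% lower in FFFF at 5 days against sham, and 5.52% and 5.62% in DKO at 1 day. They were 8.46% and 10% in DKO at 5 days, and 4.54% and 4.82% in DKO at 5 days against 1 day. With the groups alone these were 2.11% and 2.08%, 0.196% and 0.261%, 7.71% and 7.92%, and 0.204% and 0.0327%. With a trend they were 8.21% and 9.53%, 2.31% and 2.41%, 3.62% and 2.88%, and 2.39% and 1.58%, and at 0.01 they were 3.71% and 3.48%, 0.323% and 0.257%, 0.547% and 0.167%, and 0.539% and 0.188%. In FFFF at 1 day they were 3.84% and 3.86% by gene-wise analysis and 1.32% and 1.13% by limma at 0.01, and with sex as a covariate 1.48% and 0.674% in DKO at 5 days. In FFFF at 5 days against 1 day they were 0.335% and 0.731% with the groups alone. With 1 array left out, 1.38% to 7.08% were called higher in FFFF at 1 day, 0.437% to 7.03% in DKO at 1 day and 4.18% to 11.6% in FFFF at 5 days. At 5 days against 1 day, 1.04% to 5.71% were called lower in FFFF and 0.409% to 4.76% in DKO hearts. With sex as a covariate 0.621% were called lower in the latter comparison.

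With the replicate block 11 members were called in FFFF at 1 day (5.69% of all features higher and 5.53% lower). For FFFF at 5 days the count was 5 (7.95% and 9.41%), and for DKO at 1 day 8 (2.49% and 2.29%). For 5 days against 1 day the block gave 23 calls with FFFF (2.92% and 3.15%) and 13 with DKO (2.35% and 2%). The count was 0 in all comparisons of DKO with FFFF, also with the 2 groups of 1 day fitted alone. Within FFFF or DKO arrays alone, the shift of Psmb9 minus Psmb6 at 1 day was -0.41 and -0.71, and that of Psmb10 minus Psmb7 was -0.27 and -0.21 (exact permutation p = 0.1 each, the smallest for 3 against 3 arrays). At 5 days Psmb10 minus Psmb7 was -0.069 in DKO arrays, of opposite sign to the pooled 0.05. With 1 array left out, the shifts at 1 day were -0.63 to -0.49 and -0.29 to -0.19.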
